A study of Mus musculus with 6 samples.

Results

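The identity of a CD8 T cell is written by a small set of DNA-binding proteins and their inhibitors, and the RNA of 10 of these genes was read in 3 mouse peripheral T-cell lymphomas (PTCL). The genes were Tcf7, Lef1, Tbx21, Eomes, Runx3, Bcl11b, Id2, Id3, Satb1 and Prdm1. They were picked by name as regulators of CD8 T cells, with earlier results of these data known. All 10 were found, each once, among the 34245 genes of the RNA-seq table. The tumors were lymph nodes of 3 terminally sick FVB mice (FVB/N background) with germline inactivation of 1 Dnmt3b allele and a wild-type allele kept (Dnmt3b+/-). Each tumor is a separate animal, and the age of the mice is not given in the sources used here. Levels are FPKM (fragments per kilobase of exon, scaled to the depth of the library), which correct for gene length, so that genes can be set side by side inside a tumor. No library of another genotype was used here, so all values describe these 3 tumors and none was tested. Dnmt3b itself was read at 0.975, 1.55 and 1.25 FPKM in tumors 1, 2 and 3, and without a library of another genotype this level does not check the loss of 1 allele.

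In a naive CD8 T cell, TCF-1 (from Tcf7), LEF-1, SATB1 and BCL11B keep the T-cell program and the cell's quiescence. After antigen, the T-box factors T-bet (from Tbx21) and EOMES, together with RUNX3, turn on cytotoxic genes, while ID2 and ID3 hold back the E proteins that bind DNA as dimers. BLIMP-1, from Prdm1, is a repressor that drives terminal effector differentiation, and TCF-1 is the hallmark of cells that keep the capacity to divide and form memory.

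The label of the tissue was first checked on T-cell genes. Cd8a was read at 259, 122 and 218 FPKM in tumors 1, 2 and 3, and Cd4 at 28.4, 4.28 and 8.22 FPKM. Cd8a thus exceeded Cd4 in each tumor, 9.12-fold, 28.5-fold and 26.5-fold in the same order. Cd8b1, the partner chain of CD8, was at 435, 166 and 443 FPKM. All 10 T-cell markers, among them the CD3 chains, Lck and the constant segments of the T-cell receptor, stood at 1 FPKM or more in every tumor, as did 28.4% of the 34245 genes and 86.8% of the 11197 that averaged 1 FPKM or more. RNA of CD8 T cells was therefore abundant in all 3 lymph nodes, and lowest for both CD8 chains in tumor 2.

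Tcf7, at chr11:52252371-52283014 of GRCm38 (ENSMUSG00000000782), gave by far the highest level of the 10. Its RNA was at 175, 124 and 169 FPKM in tumors 1, 2 and 3, a mean of 156 ± 27.9 (SD, n = 3). Its mean was higher than that of 98.5% of the 11197 genes averaging 1 FPKM or more. Tumor 2 was the lowest, and the 3 tumors lay within 1.41-fold. Tcf7 made up 56.5%, 42.8% and 53.6% of the FPKM summed over the 10 genes. In bulk tissue, fewer cells of a type and less RNA per cell cannot be told apart, and this holds for every value here.

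Lef1 (chr3:131110471-131224356, ENSMUSG00000027985) encodes the closest relative of TCF-1, with the same kind of DNA-binding domain. It was read at 8.71, 2.12 and 8.17 FPKM, a mean of 6.33 ± 3.66 (SD, n = 3). Tumor 2 was the lowest, 4.10-fold under tumor 1 and 3.85-fold under tumor 3. The level in tumor 2 rests on 354 reads and has a 95% Poisson interval of 1.91 to 2.36 FPKM, which covers counting error only and not the spread between animals. Tcf7 and Lef1 thus differed in how far tumor 2 fell short, and the ratio of Tcf7 to Lef1 was 20.1, 58.5 and 20.7 in tumors 1, 2 and 3. With the longest transcript as gene length the ratios were lower, at 8.89, 25.9 and 9.16, and tumor 2 was again the highest.

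The promoters of Lef1 are shown because the gene has starts of different kinds, and the RNA value adds them up. RefSeq (GRCm38.p6) holds 4 entries for Lef1, each 300 bases long with 250 before and 50 after a start. The 1st below lies at the 5' end of the gene (chr3:131110047-131110346, plus strand) and the 2nd starts 45.8 kb inside it (chr3:131156044-131156343, plus strand). Capitals mark matches to CTTTGA, the core letters bound by TCF and LEF proteins, on either strand.
Lef1 5' promoter: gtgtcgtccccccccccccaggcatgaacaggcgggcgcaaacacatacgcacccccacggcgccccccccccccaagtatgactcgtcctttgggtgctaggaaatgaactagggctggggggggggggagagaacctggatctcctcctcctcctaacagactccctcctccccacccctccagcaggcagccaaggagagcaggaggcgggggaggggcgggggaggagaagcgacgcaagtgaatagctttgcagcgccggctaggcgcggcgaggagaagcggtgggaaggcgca
Lef1 internal promoter: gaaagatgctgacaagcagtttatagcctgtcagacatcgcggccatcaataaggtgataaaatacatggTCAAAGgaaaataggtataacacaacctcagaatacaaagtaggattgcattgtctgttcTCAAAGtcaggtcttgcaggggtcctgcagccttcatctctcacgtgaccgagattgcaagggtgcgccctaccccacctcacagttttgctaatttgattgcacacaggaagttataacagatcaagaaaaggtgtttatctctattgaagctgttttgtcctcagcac
The 5' entry holds 18 CpG and no match, the internal entry 5 CpG and 2 matches. The letters occur in 16.0% of all 32851 promoter entries. Which start was used in each tumor cannot be read from one value per gene.

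Satb1 (chr17:51736187-51833290, ENSMUSG00000023927) encodes an organizer of chromatin loops in thymocytes and T cells. Its RNA was at 13.1, 4.69 and 10.8 FPKM in tumors 1, 2 and 3, a mean of 9.52 ± 4.34 (SD, n = 3). As with Lef1, tumor 2 was the low one, 2.79-fold under tumor 1 and 2.30-fold under tumor 3. Bcl11b (chr12:107910403-108003602, ENSMUSG00000048251) encodes the zinc finger factor that commits thymocytes to the T lineage. It was read at 20.3, 19.5 and 17.7 FPKM, a mean of 19.1 ± 1.32 (SD, n = 3), and was the steadiest of the 10, within 1.15-fold. Tumor 2 was therefore low in Lef1 and Satb1 at a level of Bcl11b like that of the others. The promoter of Bcl11b was the other entry with CTTTGA, with 1 match.

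The T-box factors divided the tumors differently, with tumor 1 low and tumors 2 and 3 high. Tbx21 (chr11:97098071-97115331, ENSMUSG00000001444), which encodes T-bet, the driver of type 1 effector genes, was at 7.10, 34.3 and 26.3 FPKM in tumors 1, 2 and 3. Its mean was 22.6 ± 14.0 (SD, n = 3), and tumor 2 exceeded tumor 1 by 4.83-fold, a spread wider than that of 90.7% of genes. Eomes (chr9:118478212-118486132, ENSMUSG00000032446), the T-box factor tied to memory and to IL-15 responses, was at 20.0, 39.5 and 45.0 FPKM, a mean of 34.8 ± 13.1 (SD, n = 3). Tumor 1 was the lowest for both genes, and the gap was larger for Tbx21. The highest tumor was 2 for Tbx21 and 3 for Eomes. Eomes exceeded Tbx21 in each tumor, as the ratio of Tbx21 to Eomes was 0.355, 0.870 and 0.584. The spread of Eomes, 2.25-fold, fell to 1.89-fold when tumors were scaled to the same FPKM sum and to 1.72-fold when scaled to the CD3 genes, and rose to 2.56-fold with median-of-ratios scaling, which evens out the typical gene. Tumor 1 was the lowest under each of these scalings.

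Runx3 (chr4:135120652-135177990, ENSMUSG00000070691) encodes the factor that silences Cd4 and sustains the CD8 lineage and its cytotoxic genes. Its RNA was at 13.9, 36.9 and 18.5 FPKM in tumors 1, 2 and 3, a mean of 23.1 ± 12.2 (SD, n = 3). Tumor 2 was high, 2.66-fold over tumor 1 and 1.99-fold over tumor 3. The related Runx1 was at 3.10, 2.01 and 1.23 FPKM. Runx3 was thus the more abundant of the family pair in every tumor, by 4.47-fold, 18.4-fold and 15.1-fold. With the longest transcript as gene length these folds were lower, at 2.81, 11.6 and 9.50. Zbtb7b, which encodes ThPOK, the factor of the CD4 helper lineage that opposes Runx3, was flat at 3.07, 2.65 and 3.18 FPKM. The ratio of Runx3 to Zbtb7b was accordingly highest in tumor 2, at 13.9 against 4.51 and 5.84 in tumors 1 and 3. Cbfb, the shared partner of RUNX proteins, was at 43.7, 24.2 and 32.5 FPKM.

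Runx3 is transcribed from a distal and a proximal promoter, which differ sharply in sequence and are shown for that reason. The distal one (chr4:135120395-135120694, plus strand) lies at the 5' end of the gene and the proximal one (chr4:135152295-135152594, plus strand) starts 31.9 kb inside it. Capitals mark TGTGGT, the core letters bound by RUNX proteins, on either strand.
Runx3 distal promoter: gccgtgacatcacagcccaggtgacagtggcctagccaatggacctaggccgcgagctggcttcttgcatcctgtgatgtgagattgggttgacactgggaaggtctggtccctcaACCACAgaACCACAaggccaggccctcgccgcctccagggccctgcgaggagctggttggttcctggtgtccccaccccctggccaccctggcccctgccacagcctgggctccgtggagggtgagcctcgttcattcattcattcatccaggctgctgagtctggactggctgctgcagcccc
Runx3 proximal promoter: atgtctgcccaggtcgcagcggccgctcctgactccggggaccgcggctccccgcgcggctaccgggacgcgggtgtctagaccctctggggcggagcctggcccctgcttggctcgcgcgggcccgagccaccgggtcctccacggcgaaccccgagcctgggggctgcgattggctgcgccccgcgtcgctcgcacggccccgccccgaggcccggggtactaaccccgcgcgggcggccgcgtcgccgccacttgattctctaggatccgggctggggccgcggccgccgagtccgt
The distal entry holds 8 CpG and 2 matches close together, the proximal entry 45 CpG and no match. The median of all entries is 7 CpG, close to the distal entry, and 98.1% of entries have fewer CpG than the proximal one. TGTGGT occurs in 16.8% of all entries, and in 1 of the 19 entries of the 10 genes. The T-box letters GGTGTGA, found in 3.98% of all entries, occur in none of the 19. A match is a description of letters and not a bound site.

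The Id proteins lack a DNA-binding region and pair with E proteins to keep them off DNA. Id2 (chr12:25093799-25097140, ENSMUSG00000020644), the member tied to effector cells, was at 38.2, 10.9 and 12.1 FPKM in tumors 1, 2 and 3, a mean of 20.4 ± 15.4 (SD, n = 3). Tumor 1 alone was high, 3.49-fold over tumor 2 and 3.16-fold over tumor 3, and without it the mean was 11.5 FPKM. Id3 (chr4:136143497-136145755, ENSMUSG00000007872), the member tied to memory cells, was at 10.6, 15.1 and 5.54 FPKM, a mean of 10.4 ± 4.80 (SD, n = 3). Tumor 2 was the highest for Id3 and tumor 3 the lowest, 2.73-fold apart. The balance of the pair therefore turned over between tumors, with 3.61 and 2.18 times as much Id2 as Id3 in tumors 1 and 3, and a ratio of 0.723 in tumor 2.

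Among the partners of the Id proteins, Tcf3, which encodes E2A, was at 14.8, 27.9 and 16.4 FPKM, and Tcf12, which encodes HEB, at 8.91, 4.03 and 4.41 FPKM. Tcf3 was highest in tumor 2, where Id3 was high as well, and Tcf12 highest in tumor 1, where Id2 was high. Id1 was low, at 0.477, 1.27 and 0.581 FPKM, and Id4 had 2, 1 and 0 reads. Summed over Id1 to Id4, Id RNA was 2.04 times the summed RNA of Tcf3, Tcf4 and Tcf12 in tumor 1, but 0.853 and 0.862 times in tumors 2 and 3. Tumor 1 was the only one of the 3 with more Id than E protein RNA.

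Prdm1 (chr10:44437177-44528501, ENSMUSG00000038151), which encodes BLIMP-1, had the lowest mean of the 10, with 3.07, 3.10 and 2.64 FPKM and a mean of 2.94 ± 0.258 (SD, n = 3). As deposited it varied by 1.17-fold, and only 8.23% of genes had a narrower spread. When tumors were scaled to the CD3 genes it varied by 1.52-fold. Bcl6, which encodes a repressor that opposes BLIMP-1, was lower still at 1.12, 1.46 and 0.992 FPKM. Tcf7 exceeded Prdm1 by 57.0-fold, 40.1-fold and 64.1-fold in tumors 1, 2 and 3, and Id3 exceeded it by 3.43-fold, 4.88-fold and 2.10-fold. In all 3 tumors the RNA of Tcf7 thus stood far above that of Prdm1, and whether the cells were memory or effector cells was not tested.

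**Figure D1:**
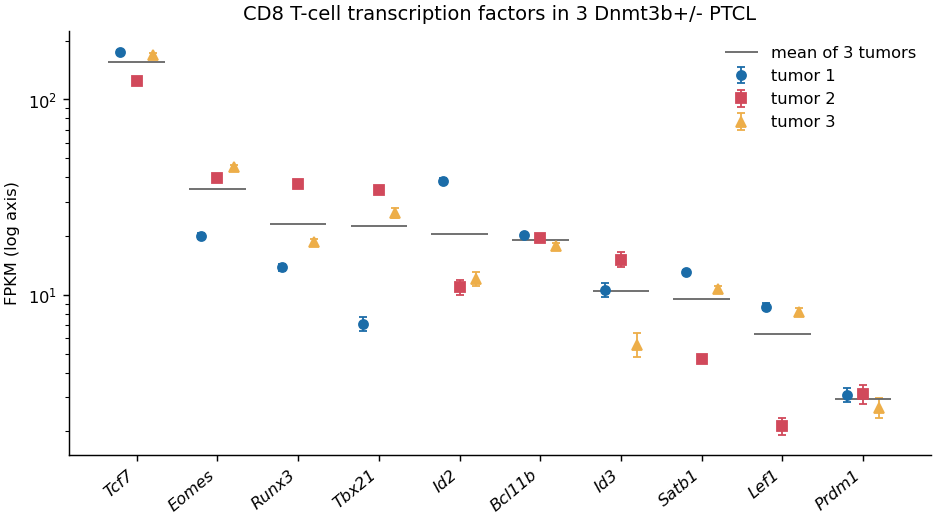
FPKM of the 10 transcription factor genes (log axis) in 3 Dnmt3b+/- PTCL; each point is a tumor, its bar the exact 95% Poisson interval of its reads (counting error only), and the grey line the mean of 3. Tcf7 is at 124 to 175 FPKM, tumor 2 is low in Lef1 and Satb1, tumor 1 is low in Tbx21 and high in Id2, and Bcl11b and Prdm1 hardly move.

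By mean FPKM the order was Tcf7, Eomes, Runx3, Tbx21, Id2, Bcl11b, Id3, Satb1, Lef1 and Prdm1. Only the steps from Tcf7 to Eomes and from Bcl11b to Id3 separated every tumor of the higher gene from every tumor of the lower. From Eomes to Bcl11b, neighbors differed by less than the larger of their SDs, as did Id3 from Satb1, Satb1 from Lef1 and Lef1 from Prdm1. Inside the tumors the order changed. After Tcf7 came Id2, Bcl11b and Eomes in tumor 1, Eomes, Runx3 and Tbx21 in tumor 2, and Eomes, Tbx21 and Runx3 in tumor 3. Tbx21 was 9th of 10 in tumor 1 but 4th in tumor 2 and 3rd in tumor 3, and Lef1 was last in tumor 2. The order rests on gene length as well. Per length of the longest transcript in place of all exons merged, a choice added after the data were seen, Satb1 moved from 8th to 4th with a mean of 29.0 FPKM and Lef1 passed Id3, with means of 15.2 and 14.6 FPKM. On that scale Tcf7 was still first in each tumor and Prdm1 was last in each, so that Lef1 was 9th in tumor 2. Bcl11b and Id3 were then no longer separate, since Id3 was at 21.2 FPKM in tumor 2, above all values of Bcl11b.

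For 7 of the 10 genes (Lef1, Tbx21, Eomes, Runx3, Id2, Id3 and Satb1) the highest tumor was at least 2 times the lowest on the deposited scale, compared with 34.4% of the 11197 genes averaging 1 FPKM or more. The median spread was 2.70-fold over the 10 genes and 1.68-fold over all of these. Tumors 1 and 2 were at least 2-fold apart for 5 of the 10 (Lef1, Tbx21, Runx3, Id2 and Satb1), against 25.2% of all genes. Tumors 1 and 3 were that far apart for 3 of the 10 (Tbx21, Eomes and Id2), against 17.7%, and tumors 2 and 3 for 3 of the 10 (Lef1, Id3 and Satb1), against 16.4%. The count of 7 thus fell to 3 without tumor 1, to 3 without tumor 2 and to 5 without tumor 3. The other 3 genes, Tcf7, Bcl11b and Prdm1, stayed within 1.41-fold on the deposited scale, and their highest tumor depended on how the tumors were scaled. The same held for Lef1, which was lowest in tumor 2 under every scaling but highest in tumor 1 or 3. The median log2 ratio over all genes was 0.18 for tumor 1 over tumor 2, 0.24 for tumor 1 over tumor 3 and 0.06 for tumor 2 over tumor 3.

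**Figure D2:**
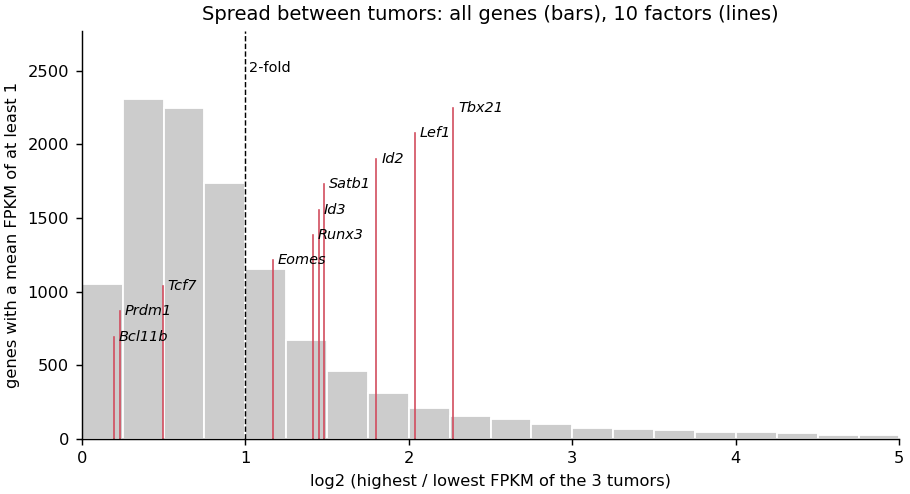
Spread between tumors, as log2 of the highest over the lowest FPKM, for all genes averaging 1 FPKM or more (bars, number of genes) and the 10 transcription factor genes (red lines, of arbitrary height); 289 genes past a log2 of 5 lie outside the axis. Bcl11b, Prdm1 and Tcf7 lie left of the 2-fold line, and Lef1 and Tbx21 lie farthest right.

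Genes annotated over the same stretch were read as a check, since the use of strand in counting is not given in the sources used here. An annotated gene overlaps 5 of the 10 (Tcf7, Lef1, Eomes, Runx3 and Satb1), and 3 of these share exon bases with it (Lef1, Eomes and Satb1). The antisense gene Gm33460, beside Eomes, was at 9.29, 16.5 and 21.6 FPKM and followed the order of Eomes over the tumors, with 118 shared exon bases, 2.84% of the exons of Eomes. The antisense gene Gm43352 shares 1208 exon bases with Lef1, 13.7% of its exons, and was at 1.61, 0.189 and 0.723 FPKM. It too was lowest in tumor 2. Over the shared exon bases, reads of a gene and of its antisense partner cannot be told apart without strand. For Satb1, genes on either strand share at most 156 exon bases, 0.820% of its exons.

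Among the 10 genes and 25 other T-cell transcription factor genes averaging 1 FPKM or more, the gene with the most similar pattern over the 3 tumors was sought by the Euclidean distance of log2 FPKM centred on their mean. With 3 points a pattern is a coarse description. The gene nearest to Tcf7 was Ets1 (distance 0.05), an activator of many T-cell genes, at 65.1, 44.2 and 60.0 FPKM. The gene nearest to Lef1 was Klf2 (distance 0.17), which keeps naive T cells quiescent and circulating, at 48.6, 12.7 and 41.7 FPKM. Klf2 was thus low in tumor 2 by nearly the same fold as Lef1. Gata3, which encodes a factor of T-cell development and helper cells, was nearest to Satb1 (distance 0.25), at 5.06, 2.31 and 4.55 FPKM. Tox, which encodes a chromatin factor of chronically stimulated CD8 T cells, was nearest to Runx3 (distance 0.18), at 1.57, 3.66 and 2.18 FPKM. Both Runx3 and Tox were highest in tumor 2. Bcl11b and Prdm1 were nearest to each other (distance 0.07), and both were flat on the deposited scale. Nr4a1, an early gene of T-cell receptor signaling, was nearest to Id3 (distance 0.21), at 2.67, 3.52 and 1.58 FPKM. Looser partners were Nfatc1 for Eomes (distance 0.44), Rora for Id2 (distance 0.50) and Eomes for Tbx21 (distance 0.92). No gene of the list came close to Tbx21.

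Of the 31 other T-cell transcription factor genes, 19 were at 1 FPKM or more in every tumor, against 28.4% of all 34245 genes, led by Ets1, Ikzf1 and Klf2. All 19 are among the 25 that averaged 1 FPKM or more, and of all genes with such a mean 86.8% were at that level in every tumor. Ikzf1, which encodes the lymphoid factor IKAROS, was at 63.5, 52.1 and 52.4 FPKM. Of these 25, 15 were at least 2-fold apart between tumors, against the 34.4% of all genes. Foxp3, the factor of regulatory T cells, was at 5.12, 1.07 and 3.32 FPKM, lowest in tumor 2 like Lef1, Satb1 and Cd4, and the part of regulatory T cells in those values was not tested. Among the same 25, tumor 2 was the lowest for 14 and the highest for 10, compared with 38.3% and 33.7% of all 11197 genes. Zfp683, at 0.332, 4.37 and 0.229 FPKM, is counted among these 10 and among the 15 at least 2-fold apart. Its mean reached 1 FPKM only through tumor 2, so its place in both counts depends on its high value there.

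**Figure D3:**
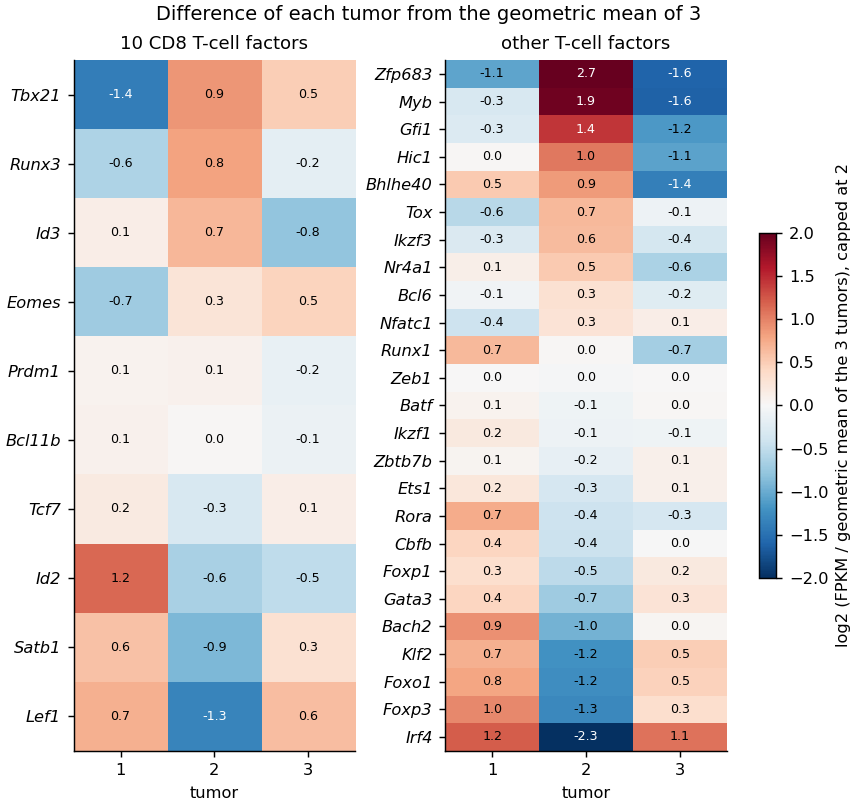
Log2 of FPKM over the geometric mean of the 3 tumors for the 10 transcription factor genes (left) and the 25 other T-cell transcription factor genes averaging 1 FPKM or more (right), sorted by tumor 2; red is above and blue below the mean. Tumor 2 is high in Tbx21 and Runx3 together with Myb and Gfi1, and low in Lef1 and Satb1 together with Irf4, Foxp3, Foxo1 and Klf2. Zfp683 is shown only because its high value in tumor 2 brings its mean past 1 FPKM.

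Ratios inside a tumor do not depend on how tumors are scaled. The mean log2 ratio was 5.72 ± 0.35 for Tcf7 to Prdm1, 4.86 ± 0.88 for Tcf7 to Lef1, 4.25 ± 0.92 for Cd8a to Cd4, 3.43 ± 1.11 for Runx3 to Runx1, 2.84 ± 0.85 for Runx3 to Zbtb7b and 1.71 ± 0.61 for Id3 to Prdm1 (SD, n = 3 each). These 6 ratios had the same sign in all 3 tumors, as had the negative ones, -0.82 ± 0.65 for Tbx21 to Eomes, -1.13 ± 0.80 for Satb1 to Bcl11b and -1.32 ± 0.20 for Bcl6 to Prdm1 (SD, n = 3 each). By contrast, Id2 to Id3, with a mean of 0.84 ± 1.19 (SD, n = 3), was below 0 in tumor 2 alone and averaged 1.49 without that tumor. Bcl11b to Id2, with 0.16 ± 0.94 (SD, n = 3), was below 0 in tumor 1 alone and averaged 0.69 without it. The mean of this pair changed sign without tumor 2 (-0.18), without tumor 3 (-0.04) and with the longest transcript as gene length (-0.15). The ratio of Runx3 to Runx1 averaged 4.06 without tumor 1. The order of Satb1 and Bcl11b depended on gene length: with the longest transcript in place of all exons merged, the mean log2 ratio was 0.47, and Satb1 was the higher in tumors 1 and 3 (0.98 and 0.89) but still the lower in tumor 2 (-0.45). All exons of Satb1 add up to 19027 bases and its longest transcript to 6243, so its FPKM is low for its number of reads.

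**Figure D4:**
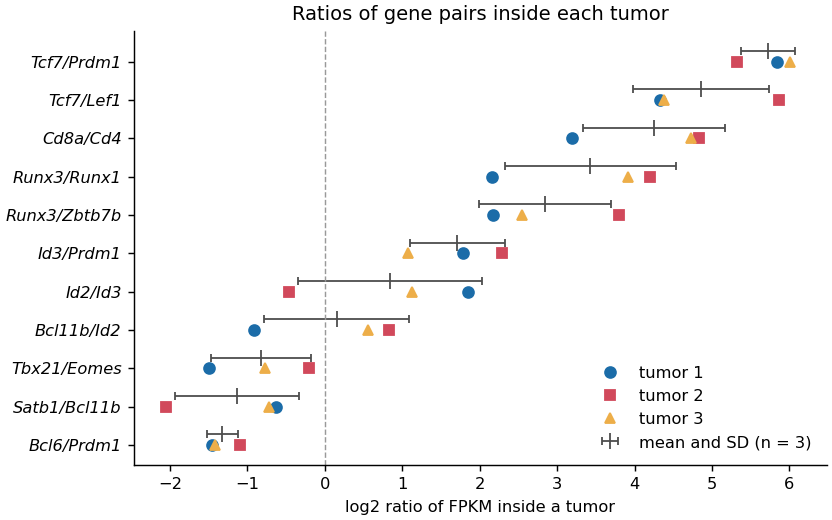
Log2 ratio of FPKM of 11 gene pairs inside each tumor (points), with mean and SD (n = 3) drawn just above; the dashed line is equal FPKM. Tumor 2 has the highest ratio of Tcf7 to Lef1 and of Runx3 to Zbtb7b and the lowest of Id2 to Id3 and of Satb1 to Bcl11b.

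The genes that these factors act on were read beside them. Of 11 genes activated by T-bet or EOMES, 10 averaged 1 FPKM or more, and all 10 were at that level in every tumor, against 86.8% of all genes with such a mean. Of the 10, 9 were at least 2-fold apart, against the 34.4% of all genes. Gzmb, which encodes the killer protease granzyme B, was at 463, 702 and 134 FPKM in tumors 1, 2 and 3. The chemokine gene Ccl5 was at 238, 194 and 729 FPKM, and Il2rb, the receptor chain for IL-2 and IL-15, at 162, 526 and 435 FPKM. Il2rb was thus lowest in tumor 1, like Tbx21 and Eomes, whereas Gzmb and Ccl5 were lowest in tumors 3 and 2. Among these 10, tumor 1 was the lowest for 5 and the highest for 3, compared with 24.3% and 50.6% of all genes. Genes of this list did not follow one order over the tumors, even though their sum was lowest in tumor 1 under every scaling.

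Of 9 genes of naive and memory CD8 T cells, 6 were lowest in tumor 2, the tumor low in Lef1 and Satb1, against 38.3% of all genes. Their summed FPKM was 454, 162 and 474 in tumors 1, 2 and 3, and tumor 2 was the lowest under every scaling. Dapl1, a transcript of resting T cells, was at 152, 22.0 and 191 FPKM and thus lowest in tumor 2. Ccr7, a chemokine receptor of naive and memory T cells, was at 71.2, 33.2 and 53.8 FPKM. Cd27, a costimulatory receptor, was even, at 63.5, 75.8 and 65.1 FPKM. Il7r, the receptor chain for the survival cytokine IL-7, stood out from the others and is named after its values were seen. It was at 30.7, 0.641 and 64.5 FPKM, and its 57 reads in tumor 2 compare with 4397 and 6247 in tumors 1 and 3. Igfbp4, at 13.5, 3.41 and 0.240 FPKM, and Actn1, at 4.15, 2.78 and 1.33 FPKM, were instead lowest in tumor 3.

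Of 5 genes bound by RUNX3 in the CD8 lineage, 4 were lowest in tumor 2, where Runx3 was highest. Of all genes, 38.3% were lowest in that tumor. One of the 4, Zbtb7b, was nearly flat. Besides Cd8a, Cd8b1, Cd4 and Zbtb7b, the list holds Itgae, the integrin chain CD103, at 12.3, 4.28 and 2.26 FPKM. In that list tumor 2 thus had the lowest RNA both of Cd4, which RUNX3 silences, and of the CD8 chains. Of the 8 partner genes of TCF and LEF proteins found, 5 averaged 1 FPKM or more, and 4 of these were at that level in every tumor, against 86.8% of all genes with such a mean. Among the 5, 1 was at least 2-fold apart, against the 34.4% of all genes. This was Tcf7l1, which encodes another TCF protein, at 0.274, 2.53 and 0.307 FPKM. Its mean reached 1 FPKM only through tumor 2, so its place among the 5 depends on its high value there. Without a filter on the mean, 4 of the 8 were at least 2-fold apart, against 29.5% of all genes. Tle1, at 1.52, 0.0545 and 0.149 FPKM, and Tcf7l2, at 0.272, 0.0784 and 0.0275 FPKM, were highest in tumor 1. Tle2, at 0.204, 0.212 and 0.0464 FPKM, was highest in tumor 2. Aes was at 53.9, 94.9 and 90.4 FPKM, the beta-catenin gene Ctnnb1 at 32.0, 30.7 and 21.2 FPKM and the corepressor gene Tle4 at 9.39, 10.3 and 9.42 FPKM. Of the 5 genes of immature thymocytes, 3 were at or near 0. Many genes were: of the 34125 with an exon length, 14429, 15662 and 16482 had no read in tumors 1, 2 and 3. Rag1 had 2, 0 and 0 reads, and Rag2 and Ptcra had no read in any tumor. At the limit of 3 reads that a count of 0 allows (one-sided, counting error only), Rag2 would be at 0.0285, 0.0462 and 0.0422 FPKM and Ptcra at 0.0761, 0.123 and 0.113 FPKM. Dntt, the polymerase that adds bases to receptor joints, was at 10.3, 0.0743 and 0.747 FPKM, and was thus high in tumor 1, with 3 reads in tumor 2. Cd1d1, which encodes the lipid-presenting CD1d, was at 4.95, 2.52 and 5.30 FPKM and was the only 1 of the 5 at 1 FPKM or more in every tumor, against 28.4% of all genes.

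Markers of other cells moved with some of these differences. Of the 6 macrophage and monocyte markers, 5 were highest in tumor 1, as were 50.6% of the 11197 genes. Their summed FPKM was 266, 90.4 and 33.4, and the most abundant was Lyz2 at 215, 33.1 and 20.3 FPKM. Cd68 was at 19.6, 51.2 and 9.27 FPKM and Csf1r at 20.7, 3.72 and 2.36 FPKM. Tumor 1 was thus the tumor with the most Id2 and the most Lyz2 and Csf1r RNA. Of the 5 plasma cell markers, 3 averaged 1 FPKM or more, of which 2 were highest in tumor 1 and 1 in tumor 3, compared with 50.6% and 15.7% of all genes. The sums over the 5, 863, 199 and 218 FPKM, were mostly Jchain at 814, 185 and 179 FPKM. Xbp1 was at 36.3, 11.1 and 11.3 FPKM, and Mzb1 at 11.0, 2.62 and 25.8 FPKM. The part of these cells in the high Id2 and the low Tbx21 of tumor 1, and in the level of Prdm1 in each tumor, was not tested.

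Of the 6 B-cell markers, 5 were lowest in tumor 2, the tumor low in Lef1 and Satb1, against 38.3% of all genes, with sums of 62.1, 50.2 and 118 FPKM. Cd79a led at 23.1, 7.31 and 49.0 FPKM, followed by Cd79b at 20.1, 3.72 and 35.5 FPKM, and Cd22 was the exception at 5.84, 36.5 and 13.9 FPKM. B-cell RNA was thus low in the same tumor as Lef1 and Satb1, and its part in that difference was not tested. The T-cell markers summed to 1077, 1227 and 1174 FPKM, and 2 of the 10, Thy1 and Trbc1, were at least 2-fold apart, against the 34.4% of all genes. Thy1, a surface protein of mouse T cells, was at 154, 24.3 and 31.9 FPKM and was high in tumor 1. Their leading genes were Lck at 160, 208 and 207 FPKM, Trac at 165, 213 and 182 FPKM and Trbc1 at 98.2, 284 and 161 FPKM.

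The 6 dendritic cell markers summed to 11.1, 6.92 and 4.03 FPKM, led by Itgax at 3.18, 1.47 and 0.762 FPKM, Xcr1 at 2.29, 1.47 and 0.973 FPKM and Clec9a at 1.27, 2.29 and 0.731 FPKM, and 0 of the 6 were at 1 FPKM or more in every tumor, against 28.4% of all genes. Of the 6 NK and innate lymphoid markers, which share Eomes and Gata3 with the lists above, Eomes made up most of the sums of 30.3, 48.2 and 53.6 FPKM. Klrb1c was at 0.308, 5.77 and 3.38 FPKM, lowest in tumor 1 like Eomes, while Ncr1, a defining receptor of NK cells, was at 0.380, 0.205 and 0.125 FPKM (18, 6 and 4 reads). Il1rl1, the IL-33 receptor of type 2 innate lymphoid cells and mast cells, was at 3.78, 0.0765 and 0.335 FPKM, and Kit, the stem cell factor receptor, at 0.785, 0.390 and 0.243 FPKM. Both were highest in tumor 1, as was Id2. These markers did not follow one order over the tumors, and the part of NK and innate lymphoid cells in the levels of Eomes, Tbx21 and Id2 was not tested. The 5 stromal and endothelial markers summed to 16.8, 43.7 and 5.32 FPKM, led by Pecam1 at 12.2, 10.9 and 4.86 FPKM, Col1a1 at 1.63, 15.5 and 0.315 FPKM and Col3a1 at 1.86, 14.3 and 0.00490 FPKM. The 6 pancreatic acinar markers summed to 70.5, 386 and 0.603 FPKM, led by Ctrb1 at 33.9, 198 and 0.0494 FPKM, Prss2 at 14.9, 52.1 and 0.177 FPKM and Cela2a at 6.72, 50.7 and 0.196 FPKM. Ctrb1 had no read in tumor 3 and is listed there at the FPKM of 0.9 read, and Col3a1 had 1 read. Tumor 2, high in Runx3 and Tbx21, thus also carried the most stromal and acinar RNA, and its part in those values was not tested.

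**Figure D5:**
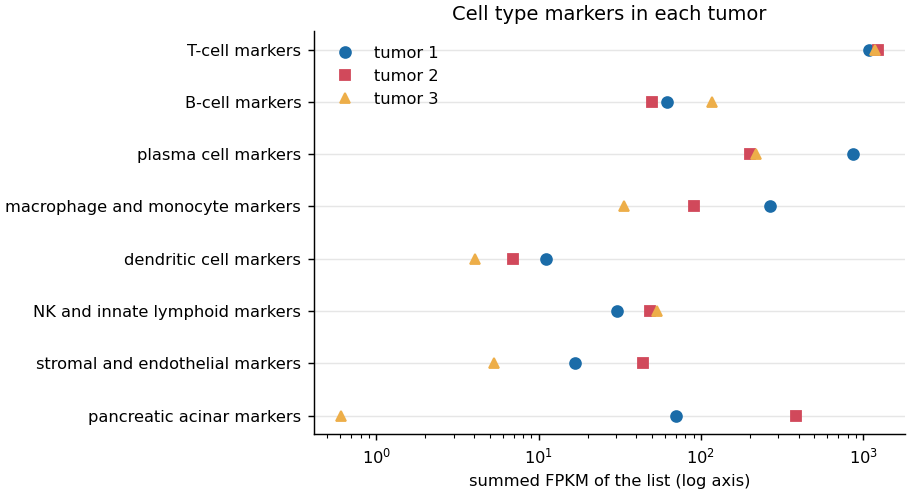
Summed FPKM of 8 lists of cell type markers (log axis), 1 point for each tumor. T-cell markers lie together at 1077 to 1227 FPKM, the sums of macrophage and of plasma cell markers (the latter mostly Jchain) are highest in tumor 1, that of B-cell markers in tumor 3, and those of stromal and acinar markers in tumor 2.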

How the data were processed

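RNA of 3 Dnmt3b+/- PTCL was sequenced as paired 150-base reads. The authors trimmed the reads, aligned them to mm10 with STAR and made the deposited FPKM in SeqMonk, keeping reads mapped with a quality of 50 or more. Bisulfite libraries were not analysed here. No value is 0: genes with no read carry the FPKM of 0.9 read. This gave depths of 30726570, 18969988 and 20770928 reads for tumors 1, 2 and 3. With GENCODE M21 exon lengths, 92.4%, 92.4% and 92.5% of 34125 genes gave whole reads (within 0.02). Exact Poisson intervals (95%) cover counting error only. Of repeated symbols the row with the highest mean was taken. No pseudocount was added, and 1 group of 3 allows no test between groups. Named are all 10 genes, the 3 highest of each other list, genes of the pairs, list genes at or under 3 reads in every tumor and nearest genes. A gene of 1 list is not reported here. Other names were chosen after their values were seen. The 10 genes and the lists were chosen with earlier results of these data known. All 10 genes had RefSeq promoters. Alternatives were 3 scalings, other thresholds, a pseudocount, another gene length, summed symbols and leaving out each tumor. Python 3.11 scripts used matplotlib 3.10.9, SciPy 1.17.1, NumPy 2.4.6 and pandas 2.3.3, and were tested on simulated data.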

Additional observations from a re-analysis of the deposited data

How the results depend on the processing

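The mean FPKM values of the 10 genes stayed within 1 SD in 78 of 80 alternatives. The exceptions came with the longest transcript as length, an alternative chosen after seeing the data, at 29.0 for Satb1 and 15.2 for Lef1. Rescaling moved no mean by more than 1.09-fold. Samples could not be paired between groups, because the RNA-seq is a single group. At a fold of 3, 3 of the 10 genes and 16.4% of all genes were that far apart, and at a fold of 1.5, 7 of the 10 and 62.8%. Leaving out each tumor gave 3 to 5 of the 10 genes and 16.4% to 25.2% of all genes. Scaling to a common sum or to the CD3 genes gave 6 genes, Eomes falling under 2-fold, against 39.6% and 47.3% of all genes, the last chosen after seeing the data.

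With the longest transcript as length, the mean log2 ratio was 3.68 for Tcf7 to Lef1, -0.63 for Bcl6 to Prdm1, -0.15 for Bcl11b to Id2 and 0.47 for Satb1 to Bcl11b, and the last 2 changed sign. With a pseudocount of 1 it was 5.31 for Tcf7 to Prdm1 and -0.85 for Bcl6 to Prdm1. Leaving out each tumor gave -0.18 to 0.69 for Bcl11b to Id2, with -0.04 without tumor 3. The other 47 of 55 alternatives of the pairs kept their sign and stayed within 1 SD.

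At 5 FPKM in every tumor the lists held 7 other T-cell factors, 1 E protein gene, 2 genes bound by RUNX3, 0 immature thymocyte genes, 2 B-cell, 1 NK and 0 stromal markers, against 14.1% of all 34245 genes. At 0.2 FPKM they held 6 macrophage, 5 dendritic, 4 NK and 2 stromal markers, against 36.7% of all genes. Median-of-ratios scaling gave 1 dendritic marker. Leaving out each tumor gave 0 to 3 dendritic, 1 to 3 stromal and 0 to 6 acinar markers, the highest without tumor 3 each time, against 28.9% to 29.98% of all genes. These shares of all genes were chosen after seeing the data. The other 97 of 112 counts stayed within 1.5 times. Depth limits the low genes most: the 206 reads of Id3 in tumor 3 leave an interval of 4.81 to 6.35 FPKM.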
